A study of Mus musculus with 7 samples.

Results

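The genes of the mouse major histocompatibility complex (MHC, called H2 in the mouse) that present peptides to T cells were followed across 7 RNA-seq libraries of old C57BL/6 mouse liver. They were all protein-coding rows of the deposited gene table whose symbol starts with H2-, together with B2m, Tap1, Tap2, Tapbp, Nlrc5, Ciita and Cd74. This gave 41 genes of the 54532 in the table. Of these, 29 belonged to class I (2 classical heavy chains, 22 non-classical heavy chains and 5 assembly or regulatory genes), 11 to class II (4 chains and 7 loading or regulatory genes), and H2-Ke6, a gene of the region that encodes no MHC chain, to neither.

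The 3 MDL-800 libraries came from old mice on a standard diet after supplementation with MDL-800, a small-molecule activator of the deacylase SIRT6. The 4 control libraries came from old mice on the standard diet alone. Strain, tissue and the low-input cDNA method were the same in both groups, and no genetic modification is named in the labels. The labels do not state dose, duration, sex or whether each library was 1 animal, so p-values measure only the spread between these libraries, which may be technical.

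Class I molecules are carried by nearly every nucleated cell and show peptides made in the cytosol to CD8 T cells. A heavy chain pairs with beta-2 microglobulin (B2m) after TAP1 and TAP2 have pumped peptides into the endoplasmic reticulum and tapasin (Tapbp) has held the chain open for loading, and NLRC5 is the class I transactivator. Class II molecules are mostly restricted to macrophages, dendritic cells and B cells. There an alpha and a beta chain (H2-Aa with H2-Ab1, or an E pair) assemble on the invariant chain (Cd74), and H2-DM exchanges the invariant chain fragment for peptide. H2-O restrains H2-DM, chiefly in B cells, and CIITA is the class II transactivator. In liver, hepatocytes carry class I, and Kupffer cells, the resident macrophages, are a main class II-bearing population.

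Promoters were available for 34 of the 41 genes in the RefSeq table (build GRCm38.p6), and the 250 bases before each RefSeq start were searched on both strands for 4 short motifs. The letters ATTGG, the core of the Y box shared by MHC promoters, were present in 22 of 25 class I promoters (88%), in 8 of 8 class II promoters (100%) and in 33.8% of all 32851 promoters in the table. TGACG, the core of cyclic AMP response elements and of the X2 box, was present in 13 of 25 class I promoters (52%), 1 of 8 class II promoters (12.5%) and 17.8% of all promoters. GAAA followed after any 2 bases by a second GAAA, an interferon response core, was present in 3 of 25 (12%), 0 of 8 and 2.98%. GGGGATT followed directly by CCCC, a kappa B form, was present in 3 of 25 (12%), 0 of 8 and 0.0304%. The last 3 were H2-K1, H2-D1 and H2-Q6. Variants of these letters were not searched. A promoter without a match may therefore still hold an X2 box or an interferon response element in other letters. For H2-DMa, Tapbp and H2-DMb2 the RefSeq start lay 9664, 3579 and 1942 bases from the start in the deposited table, so their windows belong to other transcript starts than the table's.

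Of the 6 promoters printed here, those of H2-K1 and B2m show class I promoters with ATTGG and TGACG, joined by the kappa B form in H2-K1 and by the interferon response core in B2m, and that of H2-Q10 shows a class I gene with high liver RNA and none of the 4 motifs in its window. Those of H2-Aa and H2-Eb1 belong to class II chains. That of H2-Ob belongs to a class II gene whose RNA followed other libraries than those chains. Each runs 5′ to 3′ on the gene's strand, and capitals mark a match to any of the 4 motifs on either strand, so CCAAT is ATTGG read on the opposite strand and CGTCA is TGACG. In H2-Aa both forms overlap within TGACGTCA.
H2-K1, chr17:34000334-34000583, minus strand: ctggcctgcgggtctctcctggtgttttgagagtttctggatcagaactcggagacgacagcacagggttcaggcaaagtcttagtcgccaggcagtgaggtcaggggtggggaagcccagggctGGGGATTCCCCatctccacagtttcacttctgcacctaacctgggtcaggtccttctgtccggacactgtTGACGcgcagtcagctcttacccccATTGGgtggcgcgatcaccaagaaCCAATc
B2m, chr2:122147437-122147686, plus strand: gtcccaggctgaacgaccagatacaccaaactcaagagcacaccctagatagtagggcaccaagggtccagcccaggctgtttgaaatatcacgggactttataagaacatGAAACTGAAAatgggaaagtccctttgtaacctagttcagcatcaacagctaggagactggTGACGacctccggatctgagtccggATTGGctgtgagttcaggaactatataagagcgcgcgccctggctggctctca
H2-Q10, chr17:35469839-35470088, plus strand: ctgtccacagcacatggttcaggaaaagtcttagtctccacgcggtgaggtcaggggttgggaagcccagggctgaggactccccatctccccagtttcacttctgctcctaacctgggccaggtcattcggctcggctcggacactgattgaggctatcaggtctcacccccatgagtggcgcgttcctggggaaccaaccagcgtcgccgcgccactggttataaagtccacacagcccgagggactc
H2-Aa, chr17:34287824-34288073, minus strand: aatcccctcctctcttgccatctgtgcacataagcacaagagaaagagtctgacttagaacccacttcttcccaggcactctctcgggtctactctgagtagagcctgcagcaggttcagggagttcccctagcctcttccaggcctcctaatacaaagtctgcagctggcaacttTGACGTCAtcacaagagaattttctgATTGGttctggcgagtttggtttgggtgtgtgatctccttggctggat
H2-Eb1, chr17:34305617-34305866, plus strand: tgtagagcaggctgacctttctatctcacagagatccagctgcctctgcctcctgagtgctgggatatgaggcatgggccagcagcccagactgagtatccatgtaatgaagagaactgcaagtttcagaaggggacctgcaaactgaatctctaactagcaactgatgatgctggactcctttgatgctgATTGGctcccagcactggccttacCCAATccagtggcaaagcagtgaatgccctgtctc
H2-Ob, chr17:34238655-34238904, plus strand: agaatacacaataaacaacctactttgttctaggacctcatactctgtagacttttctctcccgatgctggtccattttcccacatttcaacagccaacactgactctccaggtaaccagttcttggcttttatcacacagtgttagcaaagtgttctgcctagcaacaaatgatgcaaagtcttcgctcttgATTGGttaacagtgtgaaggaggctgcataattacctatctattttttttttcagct
A match describes letters only, and the windows were not searched for variant forms of the motifs. No binding was measured.

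The libraries held 17600066 to 19920469 gene-assigned reads, recovered from the deposited values, and the 5 hepatocyte markers (Alb, Apoa1, Ttr, Cps1 and Serpina1c) summed to 55367 to 56325 FPKM (fragments per kilobase of transcript, scaled to sequencing depth) in MDL-800 libraries, against 53983 to 81287 FPKM in control libraries. The libraries also stood apart in sex-linked transcripts. MDL-800 2 and control 1 held 3514 and 2173 reads of Uty, Eif2s3y, Kdm5d and Ddx3y, genes of the Y chromosome, and the other 5 held 0. Control 3 had neither Y-linked reads nor Xist reads. The labels do not explain this split, which put 1 library of each group apart, and results that rest on those libraries are given with and without them.

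No MHC gene passed the test between MDL-800 and control livers. With limma on log2(FPKM + 1) over the 11394 genes that averaged 1 FPKM or more, 0 genes passed a Benjamini-Hochberg adjusted p of 0.05 (0.0%), and voom on recovered reads also called 0. The 25 MHC genes tested, 17 of class I and 8 of class II, had adjusted p-values of at least 0.95. None of them had an unadjusted limma p under 0.05, against 553 of all tested genes (4.85%), and voom gave 0 of 25 and 748 of all. In none did the groups separate without overlap, against 6.45% of all tested genes. On this scale the median log2 fold change was -0.54 over class II genes (0 above 0, 8 below), -0.01 over class I genes (7 above, 10 below) and 0.02 over all tested genes (6173 above, 5221 below). The class II median rested on 1 library: without MDL-800 2 it was 0.26 with 6 of 8 genes above 0, and over the 5 libraries without Y-linked reads it was -0.00205. Fold changes on the log2(FPKM + 1) scale understate the change of low genes.

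**Figure D1:**
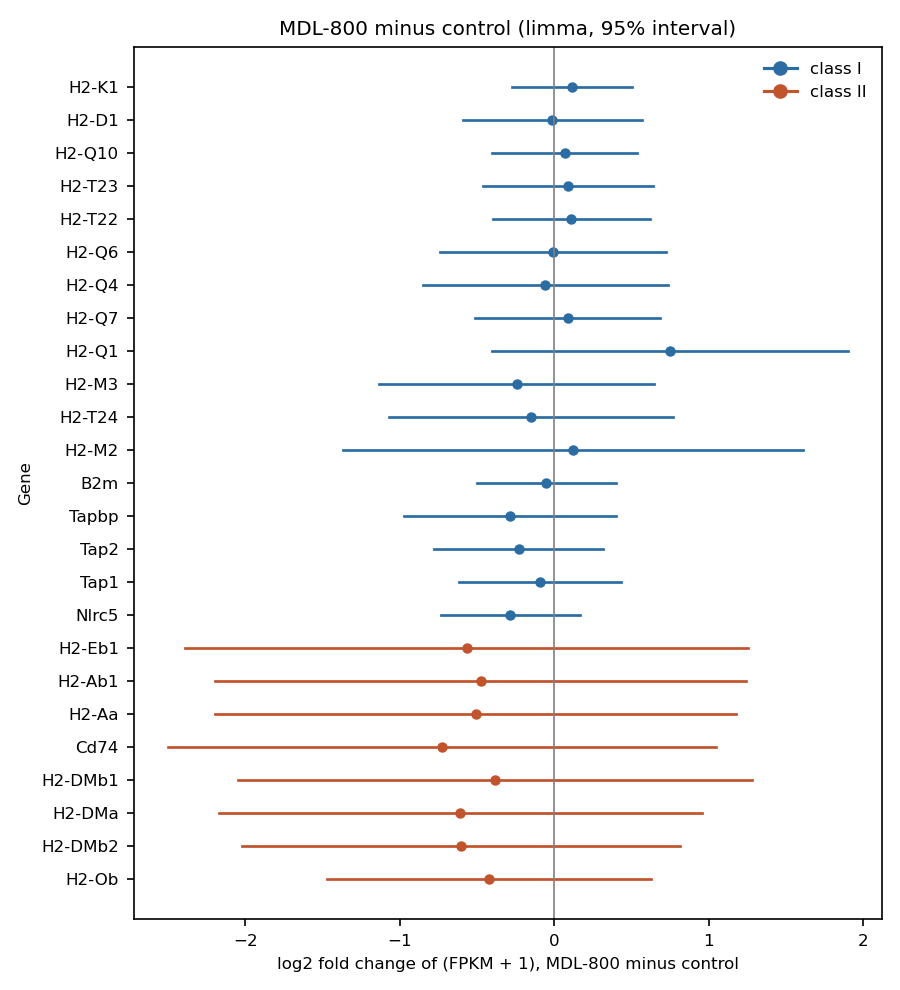
Log2 fold change of MDL-800 over control on the log2(FPKM + 1) scale (horizontal axis) for the 25 tested MHC genes, with bars for the 95% interval from limma. The 8 class II genes lie below 0 and every interval crosses 0; the class I values lie between -0.29 and 0.75.

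Among classical class I heavy chains, H2-K1 (GRCm38 chr17:33996017-34000333) had 952, 761 and 996 FPKM in MDL-800 1 to 3, against 862, 737, 781 and 945 FPKM in control 1 to 4. H2-D1 (chr17:35262730-35267499) had 526, 322 and 519.8 FPKM in the MDL-800 libraries, against 429, 485, 349 and 561 FPKM in controls. For both genes the ranges of the groups overlapped over most of their length. The H2-K1 means were 903 ± 125 FPKM in MDL-800 livers and 831 ± 91.9 FPKM in control livers (SD, n = 3 and n = 4), a log2 fold change of 0.12 with a 95% interval of -0.27 to 0.50. That of H2-D1 was -0.01, with an interval of -0.59 to 0.57. B2m (chr2:122147686-122153083), the shared light chain, was the most abundant of the 41 genes, at 2924, 2468 and 3317 FPKM in MDL-800 livers, against 3178, 2667, 2544 and 3679 FPKM in control livers. Its values overlapped as well, and its highest value was 1.49 times its lowest.

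H2-Q10, a secreted non-classical class I heavy chain made mainly by the liver, was about level with H2-D1. It stood at 404, 589 and 385 FPKM in MDL-800 livers and at 496, 368, 447 and 418 FPKM in control livers. MDL-800 2, where H2-D1 and B2m were lowest, held the highest H2-Q10 level, and control 1 the next highest. As a ratio to H2-K1, H2-Q10 was 0.424, 0.774 and 0.386 in MDL-800 livers, against 0.576, 0.499, 0.572 and 0.442 in controls. Of its 50-base sequences in GENCODE M21, 19.1% also occur in other genes, chiefly H2-Q7, so part of its reads could have been split between relatives.

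The other non-classical heavy chains were lower. H2-T23, which encodes Qa-1, the ligand of the inhibitory receptor CD94/NKG2A, had 199.9, 113 and 175 FPKM in MDL-800 livers and 123, 149.7, 182 and 145 FPKM in controls. H2-T22, a ligand of some gamma delta T cells, had 64.6, 39.2 and 63.7 FPKM in MDL-800 livers and 42.1, 47.8, 54.7 and 58.4 FPKM in controls. In both genes MDL-800 2 was lowest, control 1 was next lowest and MDL-800 1 was highest. H2-Q6 had 44.9, 19.8 and 36.0 FPKM in MDL-800 livers, against 26.0, 34.6, 26.3 and 43.9 FPKM in controls, and H2-Q4 had 38.4, 17.7 and 34.7 FPKM, against 22.4, 35.0, 23.5 and 43.6 FPKM. H2-Q6 and H2-Q7 encode Qa-2, which can be anchored by a lipid tail. The shared share of 50-base sequences was 53.5% for H2-T22, 35.0% for H2-Q6, 36.4% for H2-Q4 and 26.5% for H2-Q7, against 9.63% for H2-K1 and 12.8% for H2-D1, so levels within the H2-Q and H2-T groups are less certain than those of the classical chains.

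H2-M3, which presents N-formylated peptides, had 5.72, 2.19 and 5.63 FPKM in MDL-800 livers and 3.40, 9.72, 4.57 and 4.53 FPKM in controls. H2-T24 had 4.70, 1.15 and 4.49 FPKM in MDL-800 livers and 2.18, 5.30, 3.92 and 3.23 FPKM in controls. H2-Q1 had 6.76, 3.26 and 16.02 FPKM in MDL-800 livers, against 2.36, 7.01, 3.31 and 4.01 FPKM in controls. H2-Q1 carried the highest log2 fold change of the 25 genes, 0.75 with a standard error of 0.49 and an interval of -0.40 to 1.90, and MDL-800 3 stood far above the rest. It was 0.23 without MDL-800 3 and 1.23 without MDL-800 2. The remaining tested class I chains, H2-Q7 and H2-M2, gave 0.09 and 0.12 on that scale.

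In the assembly machinery all 5 genes had a log2 fold change below 0, and none passed the test. Without MDL-800 2 the values were 0.061 for B2m, 0.17 for Tap1, 0.017 for Tap2 and -0.028 for Tapbp, and Nlrc5 stayed below 0. Tapbp had 36.4, 21.9 and 40.4 FPKM in MDL-800 livers, against 25.5, 48.6, 41.1 and 45.8 FPKM in controls (log2 fold change -0.29). Tap1 had 9.98, 5.17 and 9.32 FPKM in MDL-800 livers and 7.33, 9.62, 7.52 and 9.56 FPKM in controls (-0.09). Tap2 had 9.16, 5.33 and 9.99 FPKM in MDL-800 livers and 7.44, 11.4, 8.50 and 11.01 FPKM in controls (-0.23). In each of these 3 peptide-loading genes MDL-800 2 was lowest and control 1 next lowest. Nlrc5 (chr8:94434356-94527272) had 3.31, 2.43 and 3.62 FPKM in MDL-800 livers and 3.90, 3.18, 3.48 and 5.72 FPKM in controls (-0.29, interval -0.74 to 0.16). Control 4 was highest for Nlrc5, and control 1 was not low. The libraries were not stranded, and Tapbp overlaps Zbtb22 while Tap1 overlaps Psmb9, so reads from overlapping stretches cannot be assigned.

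**Figure D2:**
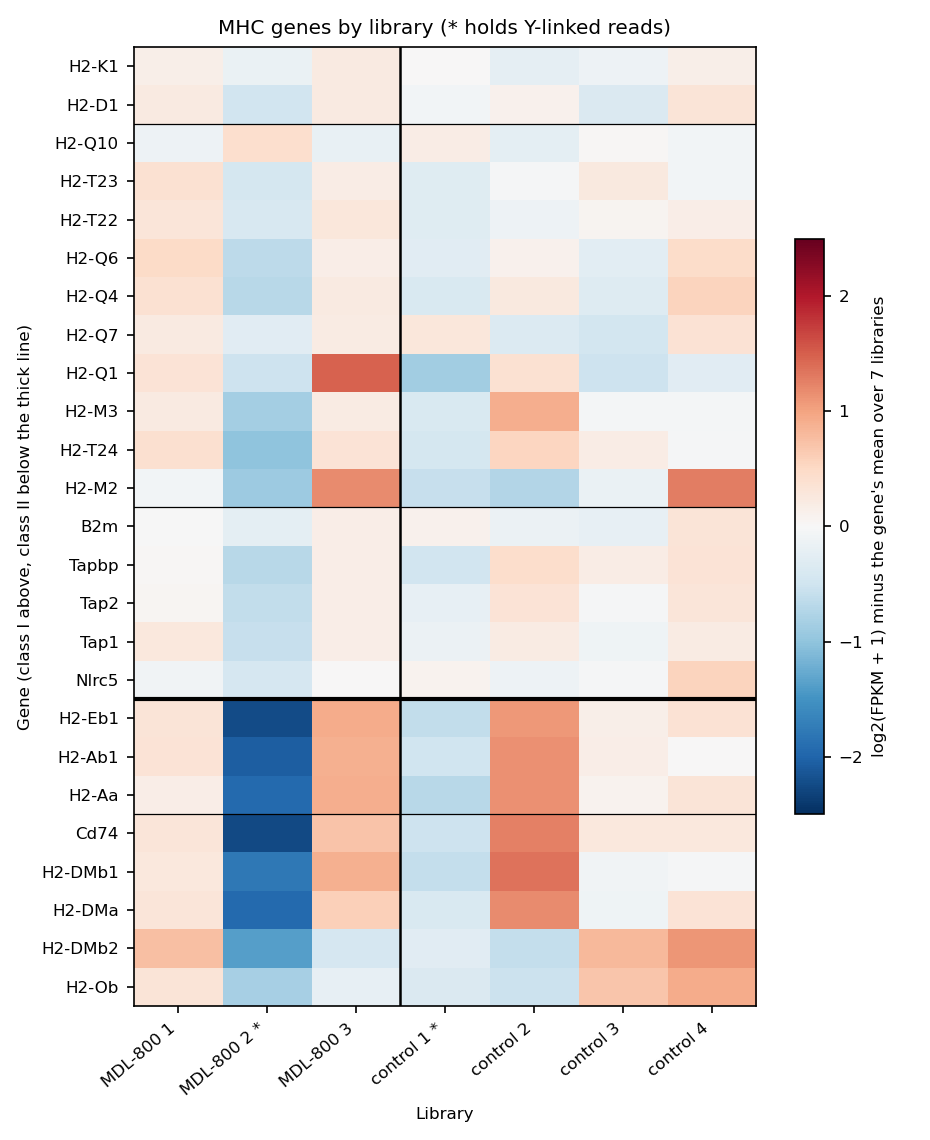
Each tested MHC gene (vertical axis) in each of the 7 libraries (horizontal axis, MDL-800 left of control), coloured by log2(FPKM + 1) minus the gene's mean over the 7 libraries. MDL-800 2 was lowest in 8 of 8 class II genes and in 13 of 17 class I genes, against 13.4% of all tested genes. Control 2 was highest in 6 of 8 class II genes, against 15.02% of all tested genes.

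The class II chains were present at lower levels than the classical class I chains and varied far more between libraries. H2-Eb1 (chr17:34305877-34316199) had 80.6, 12.8 and 124 FPKM in MDL-800 livers, against 41.3, 136, 71.3 and 82.5 FPKM in controls. H2-Ab1 (chr17:34263209-34269418) had 66.8, 11.8 and 97.9 FPKM in MDL-800 livers, against 36.8, 117, 58.6 and 52.5 FPKM in controls. H2-Aa (chr17:34282744-34287827), the alpha partner of H2-Ab1, had 50.5, 10.9 and 85.5 FPKM in MDL-800 livers, against 27.6, 100.5, 47.9 and 56.5 FPKM in controls. In all 3 chains MDL-800 2 was lowest, control 1 was next lowest, control 2 was highest and MDL-800 3 was next highest, and the groups overlapped. The alpha chain of the E pair, H2-Ea-ps, is a pseudogene in the table and had 0 reads in all 7 libraries. H2-Eb2, a further beta chain, had 107 reads in all and fell below the filter on low values.

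Cd74 (chr18:60803848-60812646), the invariant chain, was the most abundant class II gene, at 165, 27.2 and 219 FPKM in MDL-800 livers, against 92.5, 319.6, 161 and 159.7 FPKM in control livers. It averaged 137 ± 98.9 FPKM in MDL-800 livers and 183 ± 96.4 FPKM in control livers (SD, n = 3 and n = 4). Its log2 fold change was -0.73 with an interval of -2.50 to 1.05, so large differences in either direction lie within the error. The lowest and highest pairs of libraries were those of the chains, and the ratio of Cd74 to H2-Aa stayed between 2.49 and 3.28 in MDL-800 livers and between 2.83 and 3.36 in control livers. H2-DMa, the alpha chain of the peptide exchanger, had 7.27, 0.745 and 9.20 FPKM in MDL-800 livers, against 4.16, 14.3, 5.21 and 7.56 FPKM in controls. H2-DMb1, a beta chain of H2-DM, had 7.21, 0.997 and 11.7 FPKM in MDL-800 livers, against 3.57, 16.7, 5.47 and 5.76 FPKM in controls. Both placed control 2 highest and MDL-800 2 lowest, as the class II chains did. Ciita (chr16:10480059-10528418) was low throughout, at 0.698, 0.169 and 0.872 FPKM in MDL-800 livers and 0.354, 0.744, 0.615 and 0.484 FPKM in controls, from 624 reads in all. It stayed below the filter and was not tested.

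Summed over the classical chains, class II varied far more than class I. H2-Aa, H2-Ab1 and H2-Eb1 together had 198, 35.6 and 307 FPKM in MDL-800 livers, against 106, 354, 178 and 191 FPKM in control livers, a spread of 9.95 times. H2-K1 and H2-D1 together had 1478, 1083 and 1516 FPKM in MDL-800 livers, against 1291, 1222, 1129 and 1506 FPKM in control livers, a spread of 1.40 times. As a percentage of the class I sum, the class II sum was 13.4%, 3.29% and 20.3% in MDL-800 livers and 8.19%, 29.0%, 15.8% and 12.7% in control livers. Both the lowest percentage, in MDL-800 2, and the highest, in control 2, lay outside the range of the other group. Gene by gene, the highest library exceeded the lowest by a median of 11.2 times in the 8 class II genes (9.20 to 25.6), 2.13 times in the 17 class I genes (1.35 to 89.6) and 1.70 times over the 11167 tested genes with no library at 0. The 89.6 belongs to H2-M2, a low gene with 1 read in MDL-800 2. In whole liver, fewer cells of a type and less RNA per cell cannot be told apart in these values.

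**Figure D3:**
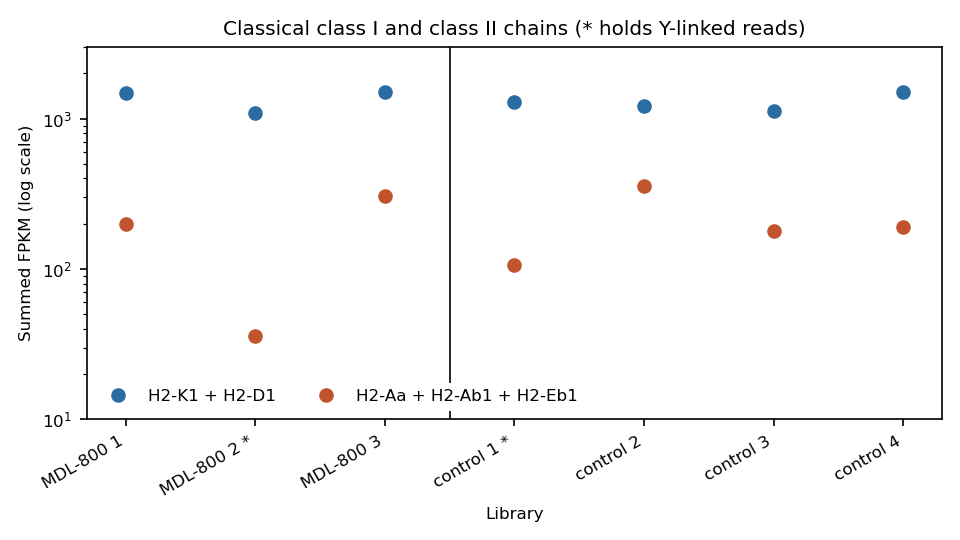
Summed FPKM (vertical axis, log scale) of the class I chains H2-K1 and H2-D1 and of the class II chains H2-Aa, H2-Ab1 and H2-Eb1 in each library, 1 point per library (horizontal axis, MDL-800 left of control). Class I stayed between 1083 and 1516 FPKM, whereas class II ran between 35.6 and 354 FPKM, with MDL-800 2 lowest and control 2 highest.

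Most macrophage markers and Ptprc were low and high in the same libraries as the class II chains. The 8 Kupffer cell and macrophage markers (Clec4f, Vsig4, Timd4, Cd5l, Marco, Adgre1, Csf1r and Cd68), all 8 tested, summed to 453, 131 and 368 FPKM in MDL-800 livers, against 127, 909, 234 and 403 FPKM in control livers. Control 2 was highest for 6 of the 8, against 15.02% of all tested genes. MDL-800 2 and control 1 were both below all other libraries for 6 of the 8, against 12.8% of all tested genes. The 7 dendritic cell markers, of which 2 passed the filter, summed to 4.36, 2.23 and 6.90 FPKM in MDL-800 livers, against 3.23, 13.7, 3.91 and 4.59 FPKM in controls. Itgax alone gave 9.35 FPKM of the control 2 sum; 2 of the 7 were highest in control 2, and for 2 of the 7 MDL-800 2 and control 1 were both below all other libraries. Ptprc, which encodes the pan-leukocyte protein CD45, had 2.34, 0.601 and 2.26 FPKM in MDL-800 livers, against 0.945, 7.35, 1.89 and 2.48 FPKM in controls. The 4 monocyte and neutrophil markers (Ly6c2, Ccr2, S100a8 and S100a9) were also highest in control 2 in sum, at 275 FPKM, and lowest in MDL-800 2, at 12.0 FPKM. S100a8 and S100a9 gave 111 and 159.9 FPKM of the control 2 sum. Control 2 was highest for 3 of the 4, but Ly6c2 was highest in MDL-800 1. The next lowest sum was 23.5 FPKM in control 4, against 37.8 FPKM in control 1. MDL-800 2 and control 1 were both below all other libraries for 2 of these 4. No marker was at 0 in all libraries, and among these lists only Cd209a, a dendritic cell marker, was at 0 in any library. Their part in the class II differences was not tested.

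H2-DMb2 and H2-Ob did not follow the other class II genes, and both were singled out after their values were seen. H2-DMb2, the other beta chain of H2-DM, had 4.33, 0.226 and 1.37 FPKM in MDL-800 livers, against 1.61, 1.08, 4.54 and 5.79 FPKM in controls. H2-Ob, the beta chain of H2-O, had 1.95, 0.327 and 1.05 FPKM in MDL-800 livers, against 0.853, 0.619, 2.84 and 3.48 FPKM in controls. Control 4 was highest and control 3 next for both, and control 2, highest for 6 class II genes, was next lowest after MDL-800 2. The ratio of H2-DMb2 to H2-DMb1 was 0.601, 0.227 and 0.117 in MDL-800 livers, against 0.451, 0.0649, 0.831 and 1.01 in controls. H2-Eb2 gave 0.786, 0.0583 and 0.206 FPKM in MDL-800 livers and 0.156, 0.186, 0.735 and 0.952 FPKM in controls, with control 4, MDL-800 1 and control 3 high as for H2-DMb2. H2-Oa, the alpha chain of H2-O, gave 1.28, 0.147 and 0.997 FPKM in MDL-800 livers and 0.420, 0.274, 0.914 and 1.08 FPKM in controls, with control 2 low and MDL-800 1 highest.

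The 5 B cell markers (Ms4a1, Cd79a, Cd79b, Cd22 and Pax5), of which 4 passed the filter, summed to 16.4, 2.14 and 6.07 FPKM in MDL-800 livers, against 6.10, 10.7, 19.4 and 56.4 FPKM in control livers. All 5 were highest in control 4, which was highest for 11.8% of all tested genes. H2-DMb2, H2-Ob and H2-Eb2 were also highest in that library, as were 6 of the 17 tested class I genes. H2-Oa was instead highest in MDL-800 1. No B cell marker was at 0 in any library. The part of these markers in the levels of H2-DMb2, H2-Ob and H2-Eb2 was not tested. H2-DMb1 and H2-DMb2 share sequence, with 22.7% of the 50-base sequences of H2-DMb1 and 25.9% of those of H2-DMb2 occurring in other genes. In their promoter windows, H2-DMb1, H2-DMb2 and H2-Ob each hold ATTGG and none of the other 3 motifs.

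**Figure D4:**
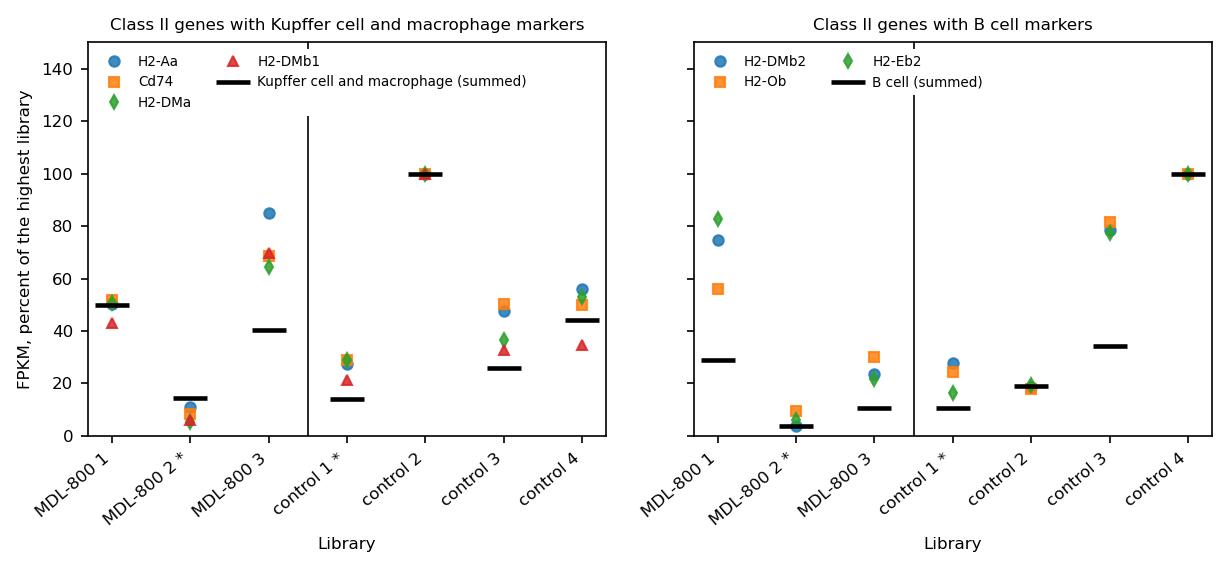
FPKM of class II genes and summed FPKM of a marker list (dashes) in each library, as a percentage of the highest library (vertical axis), with MDL-800 left of control on the horizontal axis. H2-Aa, Cd74, H2-DMa and H2-DMb1, drawn with the macrophage markers, peak in control 2, whereas H2-DMb2, H2-Ob and H2-Eb2, drawn with the B cell markers, peak in control 4. H2-Oa, highest in MDL-800 1, is not drawn.

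Between the 2 libraries with Y-linked reads and the 5 without, 24 of the 25 tested MHC genes had fitted values below 0 and 1 gene passed the test. A limma term for Y-linked reads, fitted beside the treatment group, called 276 of 11394 genes (2.42%), of which 125 were lower and 151 higher in libraries with Y-linked reads. With summed reads as the denominator, 123 were lower and 85 higher. Tapbp was the only MHC gene called, at 21.9 and 25.5 FPKM in MDL-800 2 and control 1, against 36.4 to 48.6 FPKM in the other 5 libraries. Its log2 difference was -0.79 with a standard error of 0.12 and an adjusted limma p of 0.0302. The call was lost in 5 of the 7 fits that each left out 1 library: the adjusted limma p was 0.103 without MDL-800 1, 0.231 without MDL-800 2, 0.109 without MDL-800 3, 0.381 without control 1 and 0.0528 without control 4. Over all alternatives it ranged between 0.0221 and 0.381, and the difference stayed between -1.01 and -0.76. Of the 50-base sequences of Tapbp, 23.2% also occur in other genes, chiefly Gm19412 (20.3%), so part of its reads is less certain.

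Without adjustment, 16 of the 25 MHC genes had a limma p under 0.05 in the lower direction, 10 of class I and 6 of class II, against 8.85% of all tested genes. In the higher direction there was 1, H2-Q10, against 13.8% of all tested genes. Leaving out MDL-800 2 or control 1 leaves 1 library with Y-linked reads. Counts under 0.05 from those fits therefore cannot decide whether this excess of lower MHC genes rests on 1 library, and only their medians are given. MDL-800 2 and control 1 were both below all 5 other libraries for 16 of 25 MHC genes, against 12.8% of all tested genes, and both above for H2-Q10 alone, against 20.0%. The median log2 difference was -1.70 in class II, -0.53 in class I and 0.08 over all tested genes. The class II median was -0.97 without MDL-800 2 and -2.44 without control 1. In the same order, the class I median was -0.35 and -0.74, and that over all tested genes was 0.070 and 0.077. Both class medians thus stayed below 0 and lay nearer to it without MDL-800 2.

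On the log2(FPKM + 1) scale, H2-Eb1 differed by -1.96 with an adjusted limma p of 0.0837 and Cd74 by -1.89 with 0.088. H2-Aa differed by -1.81, H2-Ab1 by -1.75, H2-DMb1 by -1.64 and H2-DMa by -1.58, all with adjusted limma p-values of at least 0.0847. Without MDL-800 2 the differences were -1.15 for H2-Eb1, -1.12 for Cd74, -1.21 for H2-Aa, -0.93 for H2-Ab1, -1.004 for H2-DMb1 and -0.85 for H2-DMa. Without control 1 they were -2.87, -2.76, -2.48, -2.67, -2.35 and -2.40 in the same order of genes. H2-DMb2 and H2-Ob differed by -1.10 and -0.79, with both sets of libraries overlapping. Among class I genes, H2-T24 differed by -1.01 (adjusted limma p 0.072), H2-K1 by -0.13 and B2m by -0.09. H2-Q10 was higher by 0.42 with an adjusted limma p of 0.18, and over all alternatives by 0.23 to 0.58. For 6 of the 8 macrophage markers MDL-800 2 and control 1 were both below all other libraries, against 12.8% of all tested genes. Marco, however, was highest in MDL-800 2. The part of these markers in the MHC values was not tested. With 2 such libraries, Y-linked status cannot be told apart from other differences of those livers.

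**Figure D5:**
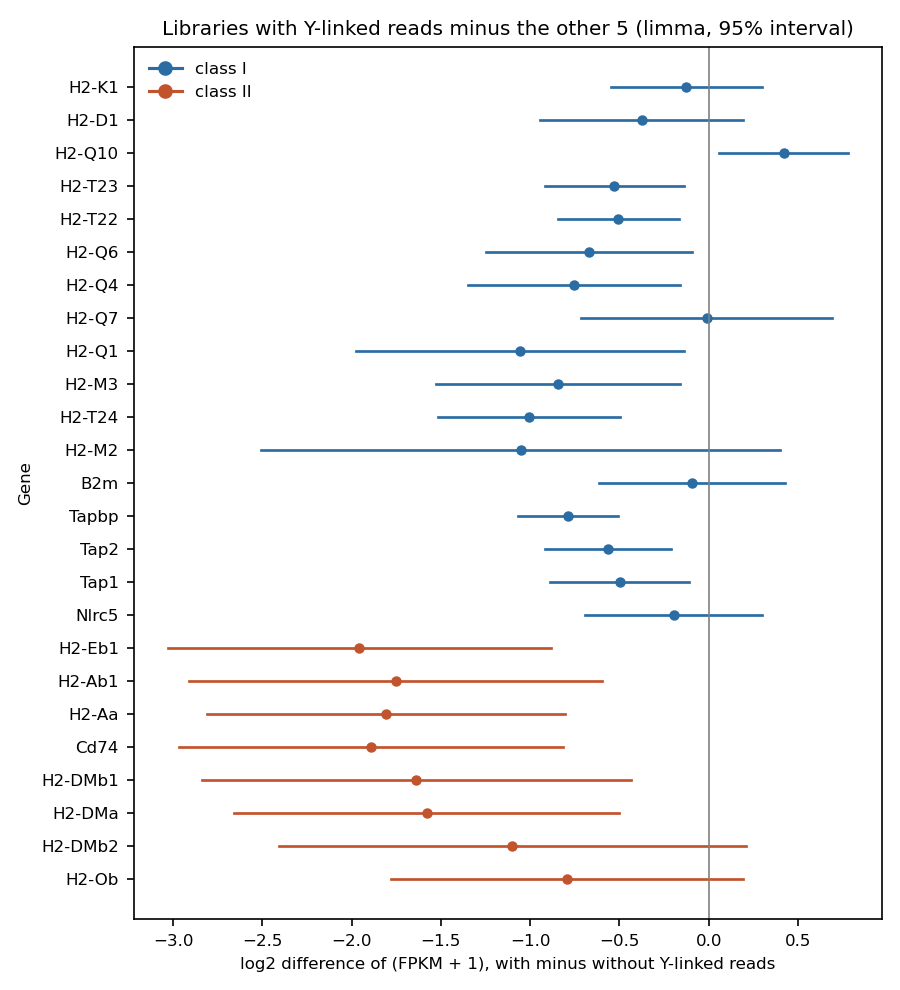
Log2 difference on the log2(FPKM + 1) scale (horizontal axis) of the 2 libraries with Y-linked reads minus the 5 without, for the 25 tested MHC genes, with bars for the 95% interval from limma. Of these genes 24 lie below 0 and H2-Q10 lies at 0.42; Tapbp alone passed the adjusted test.

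The wider antigen presentation pathway was represented by 42 symbols in 5 lists, of which 40 were found and 35 tested. Between MDL-800 and control livers 0 of 35 passed the adjusted limma test and 0 had an unadjusted p under 0.05. Their median log2 fold change was -0.11, with 11 above 0 and 24 below. The 3 with the smallest p above 0 were Ctsl, a lysosomal protease (0.39), Erap1, which trims class I peptides in the endoplasmic reticulum (0.20), and Jak2, an interferon gamma receptor kinase (0.18). The 3 below 0 were Psmb10, an immunoproteasome subunit (-0.53), Psme1, a proteasome activator subunit (-0.27), and Irf1, an interferon-induced transcription factor (-0.27). All 5 tested genes of the immunoproteasome and its activator lay below 0, with a median of -0.31 and 0 called. The other lists had medians of -0.01 for class I loading (2 above 0, 3 below), -0.11 for class II factors and processing (2 above, 9 below), -0.12 for the interferon gamma axis (3 above, 5 below) and 0.18 for class I-like chains outside H2 (4 above, 2 below).

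In the comparison by Y-linked reads, 4 of the 35 pathway genes passed, beside 2.42% of all tested genes. Psmb8 and Psmb10, both immunoproteasome subunits, differed by -0.99 and -0.78 with adjusted limma p-values of 0.0363 and 0.0427. Irf8, a transcription factor of myeloid and B cells, had 0.958 and 1.35 FPKM in the libraries with Y-linked reads, against 2.92 to 4.07 FPKM in the others, a difference of -0.98 with an adjusted limma p of 0.0217. Irf2, a repressor and activator of interferon-responsive genes, was higher by 0.95 with an adjusted limma p of 0.0264. Each of these 4 calls was lost without MDL-800 1, without MDL-800 2 and without control 1. Those of Psmb8, Psmb10 and Irf8 were also lost without MDL-800 3, and that of Psmb10 without control 4. Under the other settings, which kept all libraries, 9 fits of these 4 genes also lost the call. Ctss, the protease that trims the invariant chain in macrophages and dendritic cells, had 17.9 and 27.9 FPKM in MDL-800 2 and control 1, against 60.9 to 267 FPKM in the other 5 libraries, and did not pass (difference -2.35, adjusted limma p 0.0798).

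The 16 MHC genes that were not tested had a mean under 1 FPKM. Beside H2-Oa, Ciita and H2-Eb2, these included H2-Q2 with 116 reads in all, H2-Ke6 with 28, H2-M5 with 8, H2-M10.2 with 3 reads in control 3 alone and H2-M10.6 with 1 read in MDL-800 2. The other 8, H2-M1, H2-M9, H2-M11, H2-T3, H2-M10.1, H2-M10.3, H2-M10.4 and H2-M10.5, had 0 reads in every library. A count of 0 allows up to 3 reads, or 0.0565 to 0.211 FPKM depending on gene length and library, for counting error only. Several H2-M10 chains are known from the vomeronasal organ, and H2-T3 encodes the thymus leukaemia antigen known from gut epithelium and thymus.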

How the data were processed

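RNA was measured in 7 mouse liver libraries, 3 MDL-800 and 4 control, grouped by the diet given in the labels. Per the labels' protocols, cDNA came from a SMARTer low-input kit and libraries from an NEBNext kit, which does not mark strand. The authors deposited 1 table of FPKM per gene. The build mm9 and the programs Bowtie2 2.1.0, TopHat2 2.0.14 and Cufflinks 2.2.1 are named per the submitters' processing notes, but the sources used here do not say which of them made the values. The table's coordinates are those of GRCm38: of 54409 identifiers also in GENCODE M21, 53756 start at the same base there.

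Multiplying FPKM by gene length recovered reads, whole to within 0.01 in 100% of nonzero values, 17600066 to 19920469 per library. PCR duplicates carried no molecular identifiers, so limits from a count of 0 cover counting error only. Genes averaging 1 FPKM or more were tested as log2(FPKM + 1) without rescaling, with a two-sided trended limma fit (limma 3.58.1, R 4.3.3), Benjamini-Hochberg adjustment over all 11394 genes and a threshold of 0.05. A second fit added a term for libraries with at least 100 Y-linked reads. The procedure was tested on simulated data. Lists are described by counts and medians, without a test; 1 gene of the marker lists is not reported here. Shared sequence is the share of distinct 50-base sequences of a gene's GENCODE M21 transcripts found in any other gene's. Python 3.11.15 and matplotlib 3.10.9 made the figures.

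The MHC genes, lists and tests were chosen with earlier results of these data known. Values per library were given for H2-K1, H2-D1, the assembly genes, the class II chains, Cd74, Ciita, H2-DMa, any other gene with an unadjusted limma p under 0.05 in either fit, and the 3 other genes of highest mean; for the pathway lists, the 3 of smallest p in each direction between MDL-800 and control, and those called by Y-linked reads. H2-DMb2, H2-Ob, H2-Oa, H2-Eb2 and Ctss were named after their values were seen. Alternatives were a pseudocount of 0.1, no filter, a minimum mean of 5 FPKM, median scaling, summed reads as the denominator, voom on recovered reads, a replicate block, a Y-linked term, the 5 libraries without Y-linked reads, and leaving out each library.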

Additional observations from a re-analysis of the deposited data

Results flagged for a closer look

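The 4 control libraries were screened for a single library far from the others in each of the 25 tested MHC genes, a screen by which chance picks about 1 in 20 groups, and 2 genes were picked. H2-DMb1 had 16.7 FPKM in control 2, and the nearest of the other controls had 5.76 FPKM. H2-M2 had 3.72 FPKM in control 4, and the nearest of the other controls had 0.729 FPKM; this gene had 85 reads there and 16 or fewer in each of the other controls. Among the MDL-800 libraries, which were too few for the screen, H2-M2 had 3.42 FPKM in MDL-800 3 and 0.858 FPKM or less in the other libraries.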

How the results depend on the processing

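Between MDL-800 and control livers the count of genes called by limma was 0 under each other setting, and 0 to 1 when 1 library was left out; the 1 was no MHC gene. Leaving out 1 library gave class II medians of -1.07 to 0.26 and class I medians of -0.14 to 0.23. For the Y-linked comparison the count was 276, against 159 with no filter on low values, where more genes share the adjustment, and 33 (without control 1) to 418 (without control 3) when 1 library was left out; it was 83, 80 and 95 without MDL-800 1, 2 and 3. Without control 3, H2-Q4 and Tap2 were called beside Tapbp. The cause of these shifts was not tested.

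No pairing by replicate number was seen: correlations of same-numbered libraries' deviations were -0.59, -0.55 and 0.06, and no MDL-800 library correlated best with its own number. This check cannot exclude a pairing, because MDL-800 2 and control 1, the libraries with Y-linked reads, correlated at 0.77 and could hide it. A replicate block called 0 genes (192 at an unadjusted limma p under 0.05) and turned the log2 fold changes of B2m to 0.050, H2-D1 to 0.094, H2-Q6 to 0.14 and H2-Q4 to 0.12. Control 4 was alone in its block, and leaving it out without a block gave the same fold changes.

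Signs of uncalled genes turned under several settings. Over the 5 libraries without Y-linked reads the values were 0.092 for B2m, 0.20 for H2-D1, -0.056 for H2-Q10, 0.10 for H2-Eb1, 0.18 for H2-Ab1, 0.019 for H2-Aa, 0.23 for H2-Q6, 0.14 for H2-Q4, 0.11 for Tap1, 0.15 for H2-DMb1 and 0.14 for H2-T24. With a Y-linked term they were 0.018 for H2-D1, 0.050 for H2-Q6 and 0.00583 for H2-Q4. With summed reads as the denominator they were 0.027 for H2-D1 and 0.035 for H2-Q6. By voom they were 0.028 for H2-D1, 0.0321 for H2-Q6 and -0.15 for H2-M2.

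Leaving out 1 library gave log2 fold changes of -0.15 to 0.061 for B2m, -0.13 to 0.22 for H2-D1, -0.12 to 0.18 for H2-Q10, -1.29 to 0.20 for Cd74, -0.082 to 0.33 for H2-T23, -1.20 to 0.39 for H2-Eb1, -1.06 to 0.42 for H2-Ab1, -1.11 to 0.32 for H2-Aa, -0.011 to 0.34 for H2-T22, -0.25 to 0.32 for H2-Q6, -0.26 to 0.28 for H2-Q4, -0.052 to 0.25 for H2-Q7, -0.38 to 0.017 for Tap2, -0.24 to 0.17 for Tap1, -1.08 to 0.19 for H2-DMa, -0.93 to 0.40 for H2-DMb1, -0.42 to 0.11 for H2-M3, -0.40 to 0.31 for H2-T24, -0.11 to 0.61 for H2-M2 and, without a change of sign, 0.23 to 1.23 for H2-Q1. By Y-linked reads, the differences ran between -0.34 and 0.12 for B2m, -0.36 and 0.079 for H2-K1, and -0.49 and 0.42 for H2-Q7.

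With 3 and 4 libraries per group, intervals for class II genes span more than the fold changes seen, and few reads limit the lowest genes: H2-DMb2 had 6 reads in MDL-800 2 and H2-M2 had 1.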

Other observations

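H2 genes of other biotypes lay outside the selection. The unprocessed pseudogene H2-K2 had 11.3, 17.9 and 17.6 FPKM in MDL-800 livers, against 9.004, 16.8, 12.2 and 8.34 FPKM in controls. The polymorphic pseudogene H2-T10, a near copy of H2-T22, had 2.83, 0.791 and 2.57 FPKM in MDL-800 livers, against 1.01, 2.19, 1.98 and 2.28 FPKM in controls, with MDL-800 2 lowest and control 1 next lowest as for H2-T22. H2-T22 shared 31.2% of its 50-base sequences with H2-T10.

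The remaining marker lists fell into different orders of libraries. The 5 sinusoidal endothelial markers summed to 29.7, 23.0 and 29.1 FPKM in MDL-800 livers, against 20.5, 27.8, 24.9 and 8.12 FPKM in controls. The 4 stellate cell markers summed to 78.1, 56.8 and 88.6 FPKM in MDL-800 livers, against 55.3, 71.1, 71.3 and 23.3 FPKM in controls. Both were lowest in control 4, the library with the highest B cell marker sum. The 5 T cell markers summed to 3.50, 1.34 and 3.65 FPKM in MDL-800 livers, against 1.92, 2.63, 3.36 and 2.85 FPKM in controls. The 3 cholangiocyte markers summed to 2.54, 0.990 and 3.40 FPKM in MDL-800 livers, against 1.01, 2.02, 1.60 and 1.81 FPKM in controls. Both sums were lowest in MDL-800 2 and next lowest in control 1, the libraries in which most MHC genes were low. Singly, 3 of the 5 T cell and 1 of the 3 cholangiocyte markers had both libraries below all others. Cd4 was highest in control 1, and Krt7 was lowest in control 3. Of the T cell markers 0 passed the filter on low values, and of the cholangiocyte markers 1 did. The 3 NK cell markers summed to 1.31, 0.301 and 0.647 FPKM in MDL-800 livers, against 0.602, 1.14, 0.573 and 0.509 FPKM in controls, and were lowest in MDL-800 2. Of these 3, 0 passed the filter.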
